A study of Homo sapiens with 8 samples.

Results

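The genes described here are the nuclear-encoded subunits of the mitochondrial respiratory chain and ATP synthase. They were chosen by symbol among protein-coding genes, as names that begin with NDUFA, NDUFB, NDUFC, NDUFS or NDUFV and a number, the names SDHA to SDHD, names that begin with UQCR, names of the COX5 to COX8 series with a letter A to C, and names that begin with ATP5F1, ATP5M, ATP5P or ATP5I. The rule found 87 genes among 78932 gene identifiers: 39 in complex I, 4 in complex II, 9 in complex III, 15 in complex IV and 20 in complex V. The rule itself uses no measured value, but the genes were chosen with earlier results of these data known. The same patterns also met 171 pseudogenes, which were left out.

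The study measured RNA in HCT116, an established human colorectal cancer cell line, here in a form named dTAG-NUDT21, in which the name denotes a degron tag on NUDT21. NUDT21 is a subunit of the cleavage factor that binds upstream of poly(A) sites and influences which site is used. In 4 libraries the cells had received DMSO and JTE-607, and in the other 4 they had received dTAGV1 and JTE-607. dTAGV1 is a degrader molecule for proteins that carry the dTAG, DMSO is its solvent, and JTE-607 is an inhibitor of the endonuclease that cleaves pre-mRNA before polyadenylation. All 8 libraries therefore carry the tag and JTE-607, and every difference below is one of dTAGV1 against DMSO in the presence of JTE-607. Doses, times and the number of clones are not given in the sources used here. The labels do not say that replicates came from separate cultures, so p-values measure the spread between these samples, which may be technical.

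The first complexes of the chain pass electrons from NADH or succinate to oxygen. Complex I oxidises NADH, complex II oxidises succinate, complex III passes electrons from ubiquinol to cytochrome c, and complex IV reduces oxygen to water. Complexes I, III and IV pump protons, and complex V, the ATP synthase, uses the returning protons to make ATP. Most subunits are nuclear genes whose proteins are imported, while a small set of core subunits is encoded by mitochondrial DNA, so the complexes draw on both genomes.

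The largest increase among the subunit genes and the second largest decrease lay in genes for 1 protein, the c subunit of the ATP synthase ring. It is encoded by ATP5MC1, ATP5MC2 and ATP5MC3, whose different import sequences are removed to leave the same mature chain. The last 75 codons before the stop codon are printed for each gene, read 5′ to 3′ from GENCODE 29 transcripts ATP5MC1-201, ATP5MC2-202 and ATP5MC3-201 on GRCh38, because they show how far these 3 genes differ in bases over the mature chain. They cover coding positions 184 to 408, 199 to 423 and 202 to 426. Capitals mark the positions at which the 3 genes do not all have the same base.
ATP5MC1: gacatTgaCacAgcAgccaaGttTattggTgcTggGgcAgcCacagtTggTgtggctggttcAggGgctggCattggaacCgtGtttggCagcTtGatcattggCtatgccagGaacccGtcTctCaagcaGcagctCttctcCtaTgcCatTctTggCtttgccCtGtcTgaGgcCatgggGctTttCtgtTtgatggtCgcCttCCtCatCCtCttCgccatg
ATP5MC2: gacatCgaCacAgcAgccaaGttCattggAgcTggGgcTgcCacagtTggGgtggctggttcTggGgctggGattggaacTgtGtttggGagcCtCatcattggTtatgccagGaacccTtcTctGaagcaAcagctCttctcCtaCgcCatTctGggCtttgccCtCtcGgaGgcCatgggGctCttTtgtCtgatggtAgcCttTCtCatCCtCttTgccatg
ATP5MC3: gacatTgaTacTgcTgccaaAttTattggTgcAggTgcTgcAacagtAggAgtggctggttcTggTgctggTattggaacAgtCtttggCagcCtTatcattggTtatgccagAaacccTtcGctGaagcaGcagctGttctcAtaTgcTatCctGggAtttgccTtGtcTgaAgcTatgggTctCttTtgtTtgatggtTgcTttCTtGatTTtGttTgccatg
Of the 225 positions, 52 (23.1%) differed among the genes, and 0 codons changed the residue. ATP5MC1 and ATP5MC2 differed at 25 positions, and ATP5MC3 differed from ATP5MC1 at 42 and from ATP5MC2 also at 42. The 3 genes thus code for 1 amino acid sequence here, with different bases.

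Levels are CPM, sense-strand counts scaled to a common library size after a correction for library composition. The library kit reads 1 fragment near the 3′ end of each polyadenylated transcript, so no correction for gene length applies to these levels. Counts per gene do not separate the poly(A) sites of a gene. A gene is called higher or lower where edgeR's quasi-likelihood test gave an adjusted p under 0.05 over all 12618 genes tested, and fold changes are log2 of dTAGV1 over DMSO. The libraries held 3447842 to 4291256 sense counts in genes. NUDT21 itself was at 28.4, 33.5, 35 and 31.9 CPM with DMSO and 9.64, 8.76, 4.42 and 10.2 CPM with dTAGV1, a log2 fold change of -1.95 (SE 0.18, edgeR adjusted p = 1.36e-09). These are RNA levels, and loss of the NUDT21 protein was not measured here. The epithelial markers EPCAM, KRT8, KRT18, CDH1 and CLDN7 summed to 862 to 983 CPM with DMSO and 729 to 831 with dTAGV1. They did not move together: KRT18 fell by 0.60 and EPCAM rose by 0.28, while KRT8 at -0.38 and CDH1 at 0.02 were not called and CLDN7 was too low to test. Markers of other cell types summed to 16.4 to 22.7 and 11.8 to 17.1 CPM, most of it COL1A1, with ALB at 0 counts. The muscle marker DES reached 3.74 CPM, in DMSO replicate 3. In bulk RNA, fewer cells of a type and less RNA per cell cannot be told apart.

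The dTAGV1 libraries were not alike. Unmapped reads made up 30.3% and 29.9% of replicates 1 and 2, 24.9% and 20.4% of replicates 3 and 4, and 27.7% to 28.9% of the DMSO libraries. Of the 76 subunit genes that could be tested, 33 (43.4%) were lower in both of replicates 1 and 2 than in both of replicates 3 and 4, against 20.9% of all tested genes, and 11 (14.5%) were higher in both, against 21.1%. The part of this split in the results was not tested. Of the 30 calls given below, 26 were kept without replicates 1 and 2 and 21 without replicates 3 and 4. Values without either pair are given for only some of the genes whose call they change.

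With dTAGV1, 18 subunit genes rose and 12 fell, and the others did not pass the threshold. The 30 called are 39.5% of the 76 tested, beside 57.9% of all tested genes. Over all tested genes 29.4% were higher and 28.5% lower. The median log2 fold change of the subunit genes was 0.06, against 0.01 over all tested genes. This small median was not steady, at 0.04 without DMSO replicate 1, 0.02 without dTAGV1 replicate 3, 0.01 without dTAGV1 replicate 4, -0.05 without both of the latter and -0.01 with scaling by library size. That scaling also moved the median over all tested genes, to -0.06. The median size of the change without its sign was 0.19 against 0.42. Only 4 subunit genes, ATP5MC2, ATP5MC3, NDUFA5 and NDUFB10, reached a size of 0.5 (a size chosen after the values were seen), which is 5.26% of those tested, against 42.7% of all tested genes. NDUFB11 lay just under it, at 0.50 after rounding. NDUFB10 alone passed a size of 1, which 16.6% of all tested genes reached. The 2 groups did not overlap in CPM for 29 subunit genes, and for 50.9% of all tested genes.

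The subunit genes were high in level, with a median of 126 CPM against 27.0 CPM over all tested genes. Among genes that averaged 100 counts or more per library, 17 of 65 subunit genes rose and 12 fell, which is 44.6% called against 64.7% of the 6369 genes at that level. A size of 0.5 was reached by 4.62% of these subunit genes and by 33.9% of all genes at that level. The smaller changes of the subunit genes were thus also measured among well-covered genes. With scaling by library size alone the subunit calls were 14 higher and 16 lower, so that 46.7% of the calls were increases in place of 60.0%. Without dTAGV1 replicates 1 and 2 the counts were 25 higher and 13 lower, and without replicates 3 and 4 they were 12 higher and 14 lower.

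**Figure D1:**
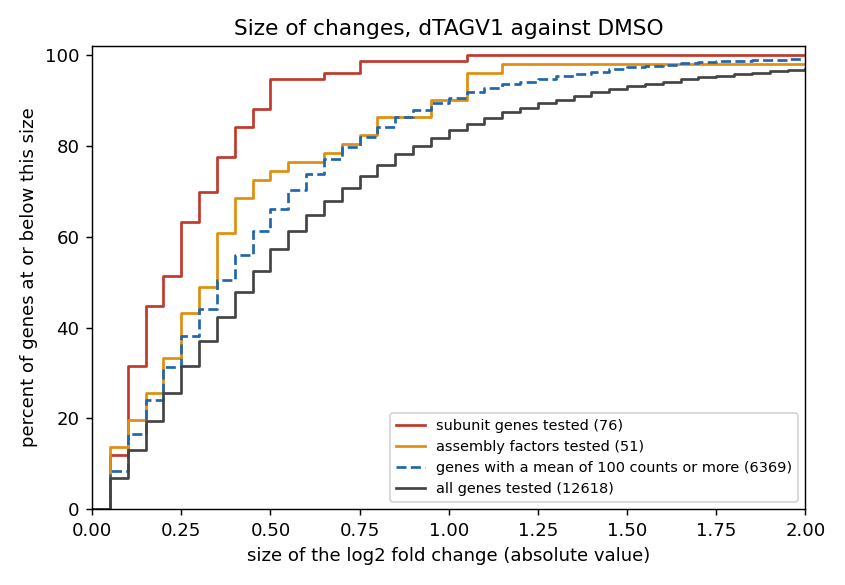
Cumulative percent of genes (vertical axis) whose log2 fold change without its sign is at or below the size on the horizontal axis. The line of the 76 subunit genes lies above those of all 12618 tested genes and of the 6369 genes that average 100 counts or more, which means smaller changes.

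In complex I, 11 of 34 tested genes rose and 3 fell, with a median log2 fold change of 0.11. That is 41.2% called, against 57.9% of all tested genes, of which 29.4% were higher and 28.5% lower. The increases were mostly in accessory subunits named NDUFA and NDUFB, which surround the catalytic core and stabilise it. Genes with these names also make up most of those tested in the complex. Of 11 tested NDUFA genes 5 rose and 0 fell, and of 11 NDUFB genes 4 rose and 1 fell. Of 8 tested NDUFS genes 1 rose and 2 fell, and of 2 tested NDUFV genes 0 passed. The remaining increase was NDUFC1, at 0.27. Counts of decreases were less stable, since they became 6 without dTAGV1 replicate 2 and 5 without replicates 1 and 2.

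NDUFA5 (ENSG00000128609, chr7:123536997-123558255, minus strand), an accessory subunit of the matrix arm, had the largest increase of complex I. Its levels were 99.7, 114, 125 and 120.2 CPM with DMSO and 179.7, 175, 195 and 152 CPM with dTAGV1. All 4 dTAGV1 values lay above all DMSO values, with a log2 fold change of 0.61 (SE 0.09, edgeR adjusted p = 1.49e-06). NDUFA5 has 12 annotated pseudogenes of its own symbol, and reads that mapped to more than 1 locus were not counted. NDUFB11, an X-linked accessory subunit of the membrane arm, was at 77.6, 83.9, 75.8 and 76.4 CPM and then at 98.9, 115, 115 and 114 CPM. It rose by 0.50 (SE 0.08, edgeR adjusted p = 1.61e-05) with no overlap. NDUFB8, another membrane-arm subunit, went from 140.5, 163, 175 and 176 CPM to 209, 248, 227 and 224 CPM. Its groups did not overlap either, and the log2 fold change was 0.47 (SE 0.08, edgeR adjusted p = 1.97e-05). NDUFB8 shares sense-strand exon bases with the annotated gene ENSG00000255339, so part of its reads may have gone uncounted.

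NDUFA3, a small accessory subunit, was at 34.2, 28.7, 28.8 and 34.4 CPM with DMSO and 49.3, 49.2, 45.4 and 31.7 CPM with dTAGV1. Replicate 4 of dTAGV1 lay inside the DMSO range. The log2 fold change was 0.47 (SE 0.13, edgeR adjusted p = 0.00395), and without dTAGV1 replicates 1 and 2 it was 0.28 with an adjusted p of 0.125. The other increases ran from 0.24 in NDUFB4 to 0.45 in NDUFB5. They included NDUFS4, NDUFA9, NDUFA10 and NDUFA12, at 0.35, 0.30, 0.33 and 0.36. NDUFA4 was at -0.02 and was not called. It carries a complex I name but is a complex IV subunit, now COXFA4, and is counted by its name here.

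NDUFB10 (ENSG00000140990, chr16:1959508-1961975, plus strand), a disulfide-bonded accessory subunit of the membrane arm, had the largest decrease of all subunit genes. It was at 10.1, 13.7, 10.1 and 10.9 CPM with DMSO and 6.80, 4.53, 4.71 and 5.91 CPM with dTAGV1. These are low levels, 256 counts over 8 libraries, yet the groups did not overlap. Its log2 fold change was -1.02 (SE 0.22, edgeR adjusted p = 0.000287). NDUFS6, a zinc-binding accessory subunit needed late in assembly, was at 144, 146, 142 and 144 CPM and then at 99.5, 115, 118 and 112 CPM. It fell by 0.37 (SE 0.08, edgeR adjusted p = 0.000208), again without overlap. NDUFS5, a subunit on the intermembrane side, fell by 0.27.

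Among core subunits of complex I, NDUFS1, NDUFS3, NDUFS7, NDUFS8 and NDUFV1 did not pass the test. NDUFV1, which holds the NADH-binding flavin site, was at 45.1, 45.8, 54.7 and 52.7 CPM with DMSO and 51.3, 51.7, 37.4 and 29.8 CPM with dTAGV1. Replicates 1 and 2 lay within the DMSO range, and replicates 3 and 4 lay below it. The log2 fold change of -0.23 (SE 0.14) did not pass the test (edgeR adjusted p = 0.175), but it was called without either of those 2 high libraries, at -0.35 in each case, with adjusted p of 0.0431 without replicate 1 and 0.0435 without replicate 2. NDUFS1, the largest iron-sulfur subunit, was at 20.2, 21.5, 18.4 and 22.5 CPM and at 15.9, 17.5, 18.0 and 19.9 CPM, with overlap and a log2 fold change of -0.21 (SE 0.14, edgeR adjusted p = 0.218). NDUFB9, the highest complex I gene of the naming rule, was at 275, 266, 287 and 292 CPM and at 273, 298, 226 and 231 CPM. These overlapping values gave -0.13 (SE 0.08, edgeR adjusted p = 0.194), and -0.22 with an adjusted p of 0.0214 without dTAGV1 replicate 2.

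Complex II, succinate dehydrogenase, has 4 subunits and no mitochondrial gene. Its catalytic flavoprotein rose and a membrane anchor fell, which is 50% called against 57.9% of all tested genes. SDHA (ENSG00000073578, chr5:218241-256700, plus strand), the flavoprotein, was at 36.3, 32.1, 35.8 and 31.4 CPM with DMSO and 45.6, 39.9, 45.4 and 55.1 CPM with dTAGV1. The groups did not overlap, and the log2 fold change was 0.46 (SE 0.12, edgeR adjusted p = 0.00134). It was 0.32 with an adjusted p of 0.0531 when dTAGV1 replicates 3 and 4 were left out. SDHA has 4 annotated pseudogenes of its own symbol, and reads that mapped to more than 1 locus were not counted for any gene.

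SDHC (ENSG00000143252, chr1:161314257-161375340, plus strand), a membrane anchor that binds heme, was at 101, 96.5, 117 and 97.9 CPM with DMSO and 58.4, 82.2, 75.1 and 90.1 CPM with dTAGV1. All dTAGV1 values were lower, and it fell by 0.43 on the log2 scale (SE 0.11, edgeR adjusted p = 0.00153). SDHB, the iron-sulfur subunit, was at 15.0, 11.6, 11.5 and 9.15 CPM and at 7.94, 7.55, 11.5 and 9.46 CPM. These values overlapped, with a log2 fold change of -0.37 (SE 0.20, edgeR adjusted p = 0.129). Without dTAGV1 replicates 3 and 4 it was -0.62, with an adjusted p of 0.0493, so that complex II then had 0 increases and 2 decreases. SDHD, the other membrane anchor, was at 20.5, 24.8, 25.9 and 24.5 CPM and at 18.4, 22.7, 21.5 and 26.5 CPM, also with overlap. Its log2 fold change was -0.10 (SE 0.14, edgeR adjusted p = 0.573).

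In complex III, 1 of 9 genes rose and 2 fell, which is 33.3% called against 57.9% of all tested genes. There were 2 increases without dTAGV1 replicates 1 and 2 and 1 decrease without replicates 3 and 4. UQCRB, a small subunit close to a ubiquinone site, had the highest level of the complex III genes of the naming rule, at 667, 714, 757 and 757 CPM with DMSO and 859, 909, 1019 and 998 CPM with dTAGV1. It rose without overlap, by 0.39 (SE 0.07, edgeR adjusted p = 4.61e-05). UQCRQ (ENSG00000164405, chr5:132866560-132868031, plus strand), another small subunit, was at 323, 355, 346 and 343 CPM and at 234, 273, 281 and 300.4 CPM. It fell by 0.33 (SE 0.08, edgeR adjusted p = 0.000625), also without overlap. The 2 small subunits thus moved in opposite directions.

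UQCRC1, a core subunit of complex III related to processing peptidases, was at 127, 125, 124 and 113 CPM with DMSO and 112, 107, 101 and 93.4 CPM with dTAGV1. The groups came close without overlap, and the gene fell by 0.24 (SE 0.08, edgeR adjusted p = 0.0133). Without dTAGV1 replicates 3 and 4 the log2 fold change was -0.18, with an adjusted p of 0.119. UQCRFS1, the Rieske iron-sulfur protein, was at 77.6, 71.4, 77.9 and 66.8 CPM and at 66.6, 72.5, 72.2 and 69.1 CPM. It did not pass, at -0.07 (SE 0.09, edgeR adjusted p = 0.542). UQCR10, UQCR11 and UQCRH, small subunits including the acidic hinge protein, were at 0.10, 0.09 and 0.14. These 3 were the only tested subunit genes with groups that did not overlap and yet no call.

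In complex IV, cytochrome c oxidase, 3 of 10 tested genes rose and 1 fell (40% called, against 57.9% of all tested genes). COX7A2L rose by 0.40, COX7C by 0.23 and COX7A2 by 0.16. The call of COX7A2 was close to the threshold (edgeR adjusted p = 0.0483). COX7A2L acts in the joining of complexes III and IV into supercomplexes and was at 87.2, 78.6, 83.5 and 86.8 CPM with DMSO and 117, 124, 105 and 97.4 CPM with dTAGV1, without overlap. COX8A, a small subunit found across tissues, fell by 0.24. Counts in this complex were fragile, with 1 increase left without dTAGV1 replicate 3, without dTAGV1 replicate 4 or without both. There were 2 increases without a filter on low counts, with counts of either strand and among genes that averaged 100 counts or more. The count was also 2 when any 1 DMSO library was left out.

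COX5A and COX5B, nuclear subunits bound to the catalytic core, did not pass the test. COX5A was at 153, 154, 161 and 155 CPM with DMSO and 140.3, 150.4, 148 and 171 CPM with dTAGV1, with overlap and a log2 fold change of -0.03 (SE 0.08, edgeR adjusted p = 0.776). COX5B was at 65.9, 69.5, 72.0 and 68.2 CPM and at 67.5, 57.1, 70.1 and 68.1 CPM. Its values overlapped as well, at -0.07 (SE 0.09, edgeR adjusted p = 0.551). COX6C, the highest complex IV gene of the naming rule, was at 363, 382, 430.4 and 389 CPM and at 384, 413, 485 and 458 CPM. That gave 0.15 (SE 0.08, edgeR adjusted p = 0.0919), and 0.20 with an adjusted p of 0.0263 without dTAGV1 replicate 1, the lowest of its group.

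In complex V, 2 of 19 tested genes rose and 5 fell (36.8% called, against 57.9% of all tested genes). The changes lay in the membrane ring, the stalks and small membrane subunits. The alpha and beta subunits of the catalytic head did not pass the test. ATP5F1B, the catalytic beta subunit, was at 452, 436, 406 and 437 CPM with DMSO and 420.3, 439.5, 407 and 436 CPM with dTAGV1, with a log2 fold change of -0.02 (SE 0.07, edgeR adjusted p = 0.791). ATP5F1A, the alpha subunit, was at 216, 195, 212 and 204 CPM and at 202, 215, 247 and 227 CPM. It did not pass, at 0.11 (SE 0.07, edgeR adjusted p = 0.224), although it was called without dTAGV1 replicates 1 and 2, at 0.20 with an adjusted p of 0.0287. ATP5IF1, the protein inhibitor of ATP hydrolysis by the enzyme, was at 30.9, 38.3, 36.0 and 39.1 CPM and at 30.3, 33.2, 41.5 and 29.8 CPM. Its groups overlapped, at -0.10 (SE 0.13, edgeR adjusted p = 0.492).

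ATP5PD (ENSG00000167863, chr17:75038863-75046985, minus strand), subunit d of the peripheral stalk, was at 234, 259, 254 and 253 CPM with DMSO and 162, 194, 194 and 193 CPM with dTAGV1. It fell without overlap by 0.43 (SE 0.08, edgeR adjusted p = 2.64e-05). Its stalk partners ATP5PB, ATP5PF and ATP5PO were not called, at 0.10, 0.06 and 0.07. ATP5MF, a small membrane subunit, fell by 0.27, and ATP5F1D, the delta subunit of the central stalk, fell by 0.32 with overlapping groups. ATP5MJ, a small membrane protein attached to the enzyme, rose by 0.20, also with overlap. The count of increases in complex V was 1 when DMSO replicate 2 or 4, dTAGV1 replicate 3 or 4, or dTAGV1 replicates 3 and 4 together were left out, and 5 without dTAGV1 replicates 1 and 2.

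The c-subunit genes changed in opposite directions. ATP5MC2 (ENSG00000135390, chr12:53632726-53677408, minus strand) was at 202, 183, 216 and 208 CPM with DMSO and 286, 319, 366 and 354 CPM with dTAGV1. The groups were well apart, and it rose by 0.71 (SE 0.08, edgeR adjusted p = 4.46e-08), the largest increase of any subunit gene. ATP5MC3 (ENSG00000154518, chr2:175176258-175184607, minus strand) was at 349.8, 362, 374 and 357 CPM and at 191, 212, 219.8 and 234 CPM. It fell by 0.75 (SE 0.07, edgeR adjusted p = 3.14e-09), with every dTAGV1 value well below every DMSO value. ATP5MC1 (ENSG00000159199, chr17:48892765-48895871, plus strand) was at 281, 321, 335 and 318 CPM and at 219, 290.3, 247 and 249 CPM. It fell by 0.32 (SE 0.08, edgeR adjusted p = 0.00148), with dTAGV1 replicate 2 inside the DMSO range.

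**Figure D2:**
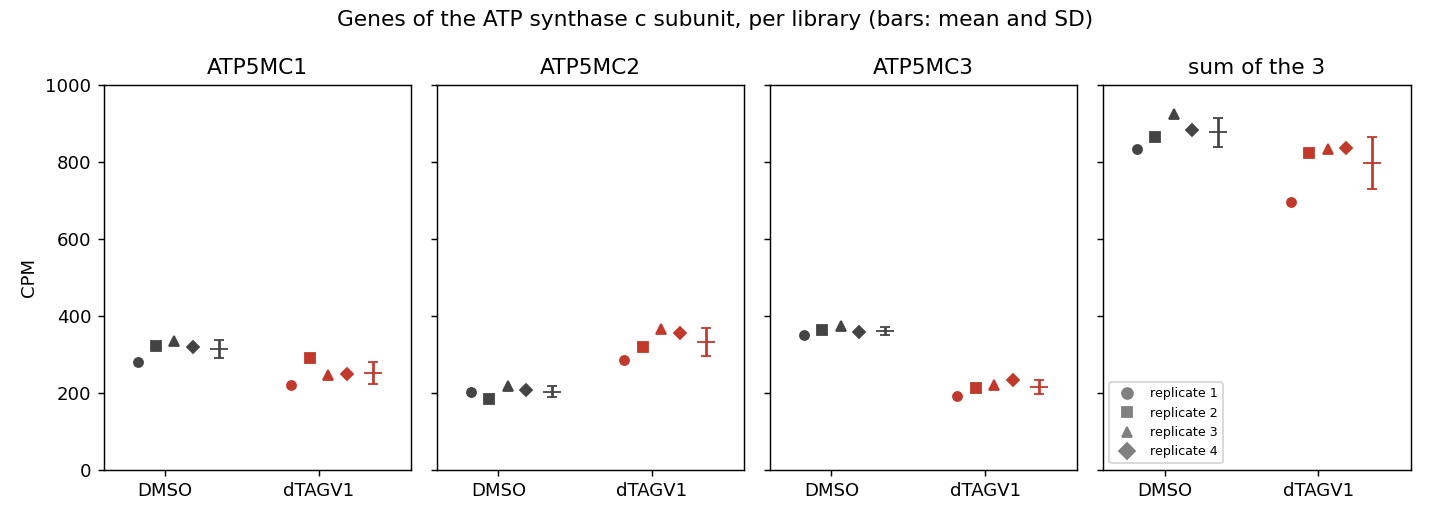
Level in CPM (vertical axis) of the 3 c-subunit genes and of their sum in each library, by group, with mean and SD as bars (n = 4). ATP5MC2 is higher and ATP5MC3 lower in all 4 dTAGV1 libraries, while the sums of the groups overlap.

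Summed over the 3 genes, c-subunit RNA was 832, 866, 925 and 883 CPM with DMSO and 696, 822, 833 and 837 CPM with dTAGV1. The means were 876 ± 38.5 and 797 ± 67.4 CPM (SD, n = 4), a ratio of 0.909, with 2 dTAGV1 libraries inside the range of the DMSO libraries. ATP5MC2 made up 23.1% ± 1.33 (SD, n = 4) of the sum with DMSO and 41.5% ± 2.15 (SD, n = 4) with dTAGV1, a shift of 18.4 percentage points. The share of ATP5MC3 went from 41.2% ± 0.871 (SD, n = 4) to 26.9% ± 0.976 (SD, n = 4), or -14.2 points. ATP5MC1 made up 35.7% ± 1.40 (SD, n = 4) and then 31.6% ± 2.65 (SD, n = 4), or -4.19 points. ATP5MC3 was thus the largest of the 3 with DMSO and the smallest with dTAGV1.

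The 3 shares sum to a whole and are not independent. In a two-sided exact permutation test over the 8 libraries, the shares of ATP5MC2 and ATP5MC3 each gave p = 0.0286, the smallest that 4 against 4 libraries allow, and 0.0571 after Benjamini-Hochberg adjustment over the 4 shares tested. ATP5MC1 gave an exact p of 0.0571 (0.0762 adjusted). The last of the 4 shares was UQCRHL, an intronless copy of the complex III hinge gene UQCRH, within the sum of both. It went from 8.48% ± 0.847 (SD, n = 4) to 7.46% ± 1.48 (SD, n = 4), with an exact permutation p of 0.343. No adjusted share passed 0.05. ATP5MC1 has 8 annotated pseudogenes of its symbol, ATP5MC2 has 5 and ATP5MC3 has 0, and both ATP5MC2 and ATP5MC3 share sense-strand exon bases with a small annotated gene (RPL31P51 and a Y_RNA).

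**Figure D3:**
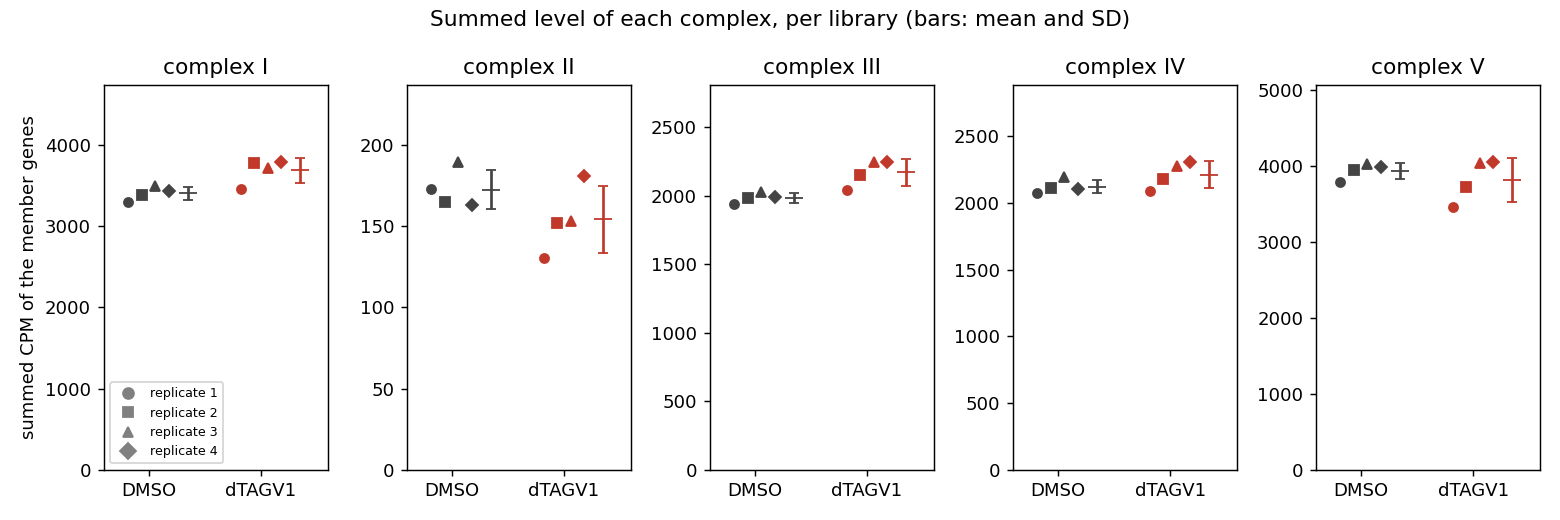
Summed CPM of all subunit genes of each complex (vertical axes, each from 0 and on its own scale) in each library, by group, with mean and SD as bars (n = 4). The groups do not overlap in complex III and overlap in the others.

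Summed over whole complexes, the ratios of the group means lay between 0.894 and 1.09. Complex I summed to 3407 ± 82.5 CPM (SD, n = 4) with DMSO and 3691 ± 155 with dTAGV1, a ratio of 1.08. Complex II summed to 173 ± 12.2 and 154 ± 20.8 CPM, a ratio of 0.894. Complex III summed to 1982 ± 37.0 and 2169 ± 97.7 CPM, a ratio of 1.09, and was the only complex whose groups did not overlap. Its highest gene, UQCRB, had means of 724 and 946 CPM, a larger rise than that of the whole sum. The mean sum of the other complex III genes therefore did not rise. Complex IV gave 2121 ± 49.8 and 2213 ± 99.1 CPM, a ratio of 1.04. Complex V gave 3930 ± 101 and 3813 ± 287 CPM, a ratio of 0.970. In each complex dTAGV1 replicate 1 had the lowest sum of its group. The median log2 fold changes of complexes I to V were 0.11, -0.23, 0.06, 0.04 and -0.04. The signs of the medians of complexes III, IV and V were not stable. That of complex III was -0.02 with scaling by library size, -0.09 with counts of either strand, -0.01 among genes that averaged 100 counts or more, -0.01 without DMSO replicate 2, -0.07 without DMSO replicate 4, -0.01 without dTAGV1 replicate 3 and -0.05 without dTAGV1 replicate 4. That of complex IV was -0.04 with scaling by library size, -0.04 without a filter on low counts, -0.02 without dTAGV1 replicate 4 and -0.06 without dTAGV1 replicates 3 and 4. That of complex V was 0.05 without dTAGV1 replicates 1 and 2. Over all tested genes the median with scaling by library size was -0.06. The median of complex II was -0.08 without dTAGV1 replicates 1 and 2 and 0.00 among genes that averaged 100 counts or more, and that of complex I was 0.03 with scaling by library size and 0.05 without dTAGV1 replicates 3 and 4. No test of a difference between complexes was made.

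The other 11 of the 87 genes were too low to test. Tissue-restricted forms were at or near 0. NDUFA4L2, COX7A1 and COX8C had 0 counts, which allows up to 0.0992 CPM over the 8 libraries (3 counts, counting error only). The read-through genes NDUFC2-KCTD14 and ATP5MF-PTCD1 also had 0 counts, but they share sense-strand exons with the genes they join, whose shared reads count for no gene, so no limit is given. COX7B2 had 1 count with DMSO and COX6A2, the heart and muscle form, had 3 with dTAGV1. COX6B2, the testis form, had 26 counts with DMSO and 8 with dTAGV1, and it shares sense-strand exon bases with another annotated gene. NDUFV2, NDUFA11 and NDUFA7 were also low but code for general subunits of complex I. NDUFV2, a core subunit, had 15 and 14 counts, NDUFA11 had 4 and 7, and NDUFA7 had 34 and 17. Each of these 3 genes shares sense-strand exon bases with another annotated gene, so their low counts are uncertain. No fold is given for any of the 11.

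Promoters of respiratory genes are known for sites of the ETS factor GABPA, of NRF1 and of YY1. RefSeq windows of 300 bases, 250 before to 50 after the start, on GRCh38.p14 were matched for 69 of the 87 genes, and both strands were searched. The ETS word CCGGAAG was present for 20 of them (29%), against 12.2% of all 27305 genes with windows and 16.5% of the 15843 protein-coding ones. The NRF1 core word GCGCATG was present for 15 (21.7%), against 5.30% and 6.82%. The YY1 word AAGATGG was present for 18 (26.1%), against 7.11% and 7.90%. All 3 words were thus more frequent among the subunit genes than in the whole table, as a description without a test.

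The words were then set beside the calls. Only tested genes with a matched window entered, which is 16 of the 18 that rose and 7 of the 12 that fell. A gene counted if any of its windows held the word. The ETS word was present for 0 of 16 genes that rose, 3 of 7 that fell and 17 of 38 that were not called. The NRF1 word was present for 4, 1 and 10 of these genes, and the YY1 word for 7, 1 and 9. These counts are small and were not tested, and a match is only a match of letters. The promoters of NDUFA5, which rose, and of SDHB, which was not called, are shown because each holds a pair of these words and they differ in the ETS word. The 250 bases before each start are printed 5′ to 3′ on the strand of the gene, with matches in capitals. One of 3 windows of NDUFA5 is chr7:123557819-123558068, minus strand, and holds GCGCATG at -158 and AAGATGG at -133 from the start. The window of SDHB is chr1:17054033-17054282, minus strand, and holds the NRF1 word as its reverse complement CATGCGC at -199 and CCGGAAG at -128.
NDUFA5: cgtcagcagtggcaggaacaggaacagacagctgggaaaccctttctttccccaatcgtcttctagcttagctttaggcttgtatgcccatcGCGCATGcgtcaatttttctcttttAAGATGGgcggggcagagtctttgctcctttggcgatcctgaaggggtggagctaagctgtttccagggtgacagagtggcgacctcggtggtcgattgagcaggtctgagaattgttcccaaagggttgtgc
SDHB: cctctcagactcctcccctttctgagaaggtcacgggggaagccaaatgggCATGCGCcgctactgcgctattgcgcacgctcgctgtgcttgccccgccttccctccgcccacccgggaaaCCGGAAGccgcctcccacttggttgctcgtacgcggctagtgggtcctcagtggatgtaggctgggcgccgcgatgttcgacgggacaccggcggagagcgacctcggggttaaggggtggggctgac

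Other genes of the pathway were read from fixed lists. The 13 subunits encoded by mitochondrial DNA had 7 increases and 0 decreases (53.8% called, against 57.9% of all tested genes), with a median log2 fold change of 0.33. MT-ND2, a complex I membrane subunit, was at 2458, 2769, 2850.3 and 2723 CPM with DMSO and 4305, 5126, 4879 and 4416 CPM with dTAGV1, the largest increase of the list at 0.79 (SE 0.07, edgeR adjusted p = 6.49e-10). MT-ND6, the complex I gene on the other strand, had the lowest value of the list, at -0.37 (SE 0.35), and was not called. MT-ATP6 rose by 0.61 while MT-ATP8 was at 0.02, and MT-ND4 rose by 0.51 while MT-ND4L was at 0.13. MT-ATP8 and MT-ND4L were not called. These pairs were named after their values were seen. Whether the 13 counts stand for separate RNAs was not tested. The 13 genes summed to 46158 to 48384 CPM with DMSO and 56043 to 61509 CPM with dTAGV1, without overlap. The nuclear subunits summed to 11612 ± 268 and 12041 ± 633 CPM (SD, n = 4), a ratio of 1.04.

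A further 5 nuclear genes of the chain lie outside the naming rule. Of the 4 that could be tested, CYCS, the electron carrier cytochrome c, fell by 0.27, and 0 rose. COX4I1, the general form of the largest nuclear complex IV subunit, was at -0.01, CYC1, the heme subunit of complex III, at -0.09, and NDUFAB1, the acyl carrier protein of complex I, at -0.12. None of these 3 passed the test. COX4I2 had 0 counts.

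Assembly factors, which build the complexes without staying in them, had larger changes than the subunit genes and smaller ones than tested genes as a whole. Of 51 tested, 10 rose and 14 fell (47.1%, against 57.9% of all tested genes), with a median log2 fold change of 0.01. Their median size was 0.30, against 0.42 over all tested genes, and 13 (25.5%) reached a size of 0.5, against 42.7%. PET117, a complex IV assembly factor, was at 4.10, 2.89, 2.93 and 2.97 CPM with DMSO and 0, 0.604, 0.295 and 0 CPM with dTAGV1, with a fitted log2 fold change of -3.75 that rests on few counts. LYRM7, a chaperone of the Rieske protein, was at 74.9, 85.1, 86.4 and 90.8 CPM and at 33.2, 36.6, 41.8 and 41.6 CPM, and it fell by 1.14. Its client UQCRFS1 was not called, as given above. UQCC1, a complex III factor, rose by 1.02 and ECSIT, a complex I factor, by 1.05, while NUBPL, which delivers iron-sulfur clusters to complex I, fell by 1.03. LYRM7, UQCC1 and NUBPL were named after their values were seen.

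Among regulators of mitochondrial gene expression, 3 of 12 tested rose and 4 fell, which is 58.3% called and close to the 57.9% of all tested genes. PPARGC1B, a coactivator of these genes, was at 9.02, 12.3, 13.6 and 17.6 CPM with DMSO and 7.37, 4.23, 4.12 and 6.62 CPM with dTAGV1 and fell by 1.22 (SE 0.24, edgeR adjusted p = 0.000114). GABPB1 rose by 0.38, the largest increase of the list. Of the factors whose promoter words are given above, GABPA rose by 0.33, the NRF1 gene fell by 0.46 and YY1, at -0.11, was not called. In the TCA cycle, 3 of 13 enzymes rose and 4 fell (53.8% called). A pair of subunits of 1 enzyme, NAD-dependent isocitrate dehydrogenase, moved apart and were the largest decrease and the largest increase of the list. Another subunit of that enzyme, IDH3B, was at -0.11 and was not called. IDH3A was at 89.4, 100.1, 126 and 104 CPM and at 48.2, 44.4, 45.7 and 47.3 CPM and fell by 1.18. IDH3G was at 27.3, 26.0, 26.1 and 23.5 CPM and at 41.9, 53.5, 50.4 and 49.7 CPM and rose by 0.92.

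**Figure D4:**
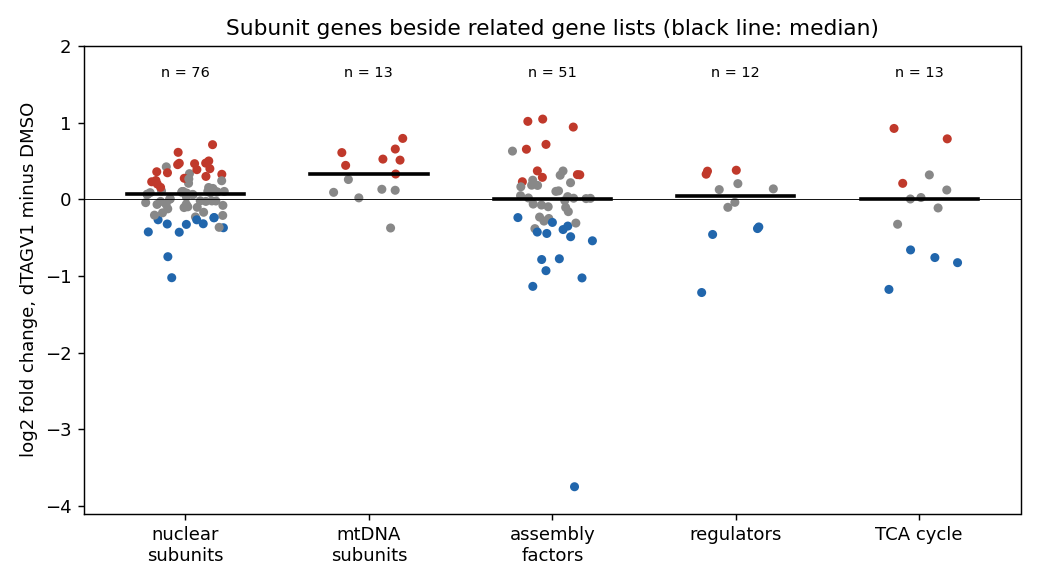
Log2 fold change, dTAGV1 minus DMSO (vertical axis), of each tested gene in the nuclear subunits and in 4 related lists, with red for higher, blue for lower and grey for no call, and the median as a black line. The medians are 0.06, 0.33, 0.01, 0.04 and 0.00 from left to right, and the assembly factors reach from -3.75 to 1.05.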

How the data were processed

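RNA of 8 libraries was read with the Lexogen QuantSeq forward kit. The deposited values are whole-number counts of reads per gene, in a layout with 1 column for either strand and 1 for each strand, and the sense column (column 3) was used. The submitters' processing notes name FastQC, fastp, STAR, HTSeq, DESeq2 and GRCh38, without versions or roles. Rows for reads given to no gene (56.7% to 62.8% of reads) stayed out of library sizes. Multimapping reads were 7.59% to 8.30% and reads in overlapping genes 1.84% to 2.11%, so genes with copies or overlaps are uncertain.

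Symbols matched 61481 of 78932 identifiers, and gene types and coordinates came from GENCODE 29 (57356 matched). Counts were fitted with edgeR 4.0.16 in R 4.3.3 (filterByExpr, TMM, robust quasi-likelihood) over 12618 genes, with Benjamini-Hochberg adjustment at 0.05. In simulated data of 12618 genes with 200 changed for dTAGV1 against DMSO, 56% of 100 genes at a log2 change of 0.5 and 92% of 100 at 1 were recovered, with 9 false calls. Far fewer genes were changed there than were called in the data, and they were drawn at all levels. These rates therefore do not give the share of changes recovered among the subunit genes. Alternatives were DESeq2 1.42.0, other scalings and filters, either-strand counts, a replicate block and leaving out libraries. Figures used matplotlib 3.10.9 and permutation tests scipy 1.17.1.

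Members given in full were the 6 largest called increases and 6 largest called decreases, the highest gene of each complex and fixed core subunits, of which 1 is not reported here. Members and lists were chosen with earlier results of these data known. Promoters came from RefSeq.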

Additional observations from a re-analysis of the deposited data

Results flagged for a closer look

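In 64 groups of 4 values (28 genes and 4 shares, each in both treatments), the highest and lowest values were set against the rest, and 3 stood apart by Dixon's criterion for 4 values at the 95% level. Chance alone gives about 1 in 20 such groups. NDUFB11 was at 98.9 CPM in dTAGV1 replicate 1, below the other 3 by 0.929 of the range, and still above every DMSO library. ATP5PD was at 162 CPM in dTAGV1 replicate 1, below the other 3 by 0.985 of the range. COX5A was at 161 CPM in DMSO replicate 3, above the others by 0.840 of the range, a small step in a group from 153 to 161 CPM. NDUFB11 and ATP5PD kept their calls in each of the 17 alternatives.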

How the results depend on the processing

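The counts of 18 higher and 12 lower subunit genes stayed within 1.5 times under every alternative, those that leave out 1 library each giving 15 to 20 higher and 11 to 15 lower. Other settings gave 17 and 12 with DESeq2-type scaling in edgeR, 17 and 11 with DESeq2, 16 and 13 of 82 tested without a filter, 16 and 15 of 75 tested with either-strand counts. Of the 30 calls, 26 to 29 were kept in each of these, 26 without dTAGV1 replicates 1 and 2 and 21 without replicates 3 and 4, both chosen after seeing the data. Of the 15 called genes given in full, 12 were called in each of the 17 alternatives that tested them (NDUFB10 was below the filter at a mean of 100 counts) and 3 (NDUFA3, SDHA, UQCRC1) lost the call only when 2 dTAGV1 libraries were left out. With scaling by library size NDUFB9 was called as well, at -0.20. The same scaling gave 6 decreases in complex I and 1 increase in each of complexes IV and V. No gene that was called and is given in full changed its direction, whereas the medians over complexes III, IV and V changed sign, as did that over all subunit genes.

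A replicate block gave 17 higher and 13 lower. Deviations of libraries with the same number correlated at 0.131, -0.0176, 0.0232 and 0.0340, so the numbers were not taken as pairs. With the block, sign flips over 4 pairs gave an exact p of 0.125 (0.167 adjusted) for each c-subunit share. That is the smallest p that 4 pairs allow, so no share could have passed this test, and it decides nothing about the shares. Leaving out 1 library, the shift of ATP5MC2 ranged from 17.6 to 19.3 points, that of ATP5MC3 from -14.6 to -13.9, that of ATP5MC1 from -5.45 to -3.57 and that of UQCRHL from -1.74 to -0.609. Depth limits genes such as NDUFB10, UQCRC2 and SDHB, which have few counts.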

Other observations

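Subunit genes span less of the genome than tested genes as a whole, with a median of 12 kb against 30.9 kb. Across the 76 tested subunit genes, span and log2 fold change had a Spearman rho of 0.281, against 0.0718 over 12093 tested genes, as a description across genes, which are not independent replicates. Mean CPM and log2 fold change had a rho of 0.0137 among the subunit genes. The 27 genes that share sense-strand exon bases with another annotated gene had 5 increases and 3 decreases among 21 tested (38.1%), and the 60 without had 13 and 9 among 55 (40.0%). Genes with a pseudogene of their own symbol had 13 increases and 7 decreases among 47 tested (42.6%), and those without had 5 and 5 among 29 (34.5%). Of all tested genes 57.9% were called.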
